A study of Oryza sativa with 10 samples.

Results

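Among the 10 libraries of the series, 1 library stood out at 48 hours after fertilization (HAF) for transcripts of heat shock genes. It came from developing rice (Oryza sativa) seeds of the line Cr78_8.22.2, labelled as edited by CRISPR at MADS78 and called CR78 here. It was selected on its measured counts at 48 HAF, in which genes such as that of the heat shock protein HSP101 (LOC_Os05g44340) were high. All values of that contrast are therefore given as a description, with no test. It is compared with the other 4 libraries of that time over all 55801 features of the deposited count tables. The comparison is 1 library against 4, and no library has a replicate.

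The study sequenced RNA of whole seeds without the husk at 48 and 72 HAF, in the wild type and in lines with altered MADS78 or MADS79, both coding for transcription factors of the MADS-box family. The CR78 48 HAF library is set against OE78 (line OE78-8) and OE79 (line OE79-3), labelled as overexpressing MADS78 and MADS79, against CR79 (line Cr79_11.25.3), labelled as CRISPR-edited at the second gene, and against wild type (WT), all at 48 HAF. The CR78 72 HAF library is set against the same 4 genotypes at 72 HAF. Each manipulation is represented by 1 line. A line, its edit or transgene, and the handling of its sample therefore cannot be told apart. The labels give no growth temperature, collection hour or batch, and they state no heat treatment.

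Library totals at 48 HAF lay between 15557079 counts in CR78 and 16861065 counts in WT, and over the series between 12267337 and 18040600. In CR78 48 HAF 30484 genes had reads, inside the range of 29352 to 31278 over the 10 libraries, and the 50 most abundant genes took 7.89% of its counts, against 6.80% to 7.61% in the other 4. Expression is given in CPM, a gene's reads scaled to the library total times its TMM factor, which edgeR sets to adjust for library composition, and levels of different genes are not compared because gene length is not corrected for. MADS78 (LOC_Os09g02830) had 1 read in CR78 at each time and 0 to 6 reads elsewhere, except for 2116 reads in OE78 72 HAF. MADS79 (LOC_Os01g74440) had 36 and 3 reads in CR78 at 48 and 72 HAF, against 33 and 20 reads in WT. Neither gene was raised in the library labelled OE78 at 48 HAF, which had 6 and 22 reads, nor MADS79 in those labelled OE79, with 39 and 7 reads. In CR79, labelled as edited in this gene, MADS79 had 34 reads at 48 HAF and 0 at 72 HAF. The counts thus do not bear out the overexpression labels of these libraries, although a transgene without the counted region would not show. MADS78, with 3 and 0 reads in WT, was too low to check the CR78 label, and an edit need not remove a transcript.

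Heat unfolds proteins, and plant cells answer by transcribing chaperone genes through heat stress transcription factors (HSFs). Small heat shock proteins hold unfolded proteins, HSP70 and HSP90 refold and mature them, and HSP101 pulls apart aggregates. In plants, HSFA2 genes are among the factors most strongly induced by heat, and the early rice endosperm is known to be sensitive to heat while it forms its first cell walls.

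A gene was called higher when its CPM in CR78 48 HAF was at least 2-fold above the highest of the other 4 libraries, and lower when at least 2-fold below the lowest, among genes reaching 5 CPM in at least 1 of the 5. Of 18457 such genes, 36 were called higher (0.195%) and 53 lower (0.287%). Simply standing above all 4 was common, with 2536 genes (13.7%), as was standing below all 4, with 2568 genes (13.9%). Over all tested genes the median log2 ratio of CR78 to the mean of the other 4 was -0.02 with 0.5 CPM added, and its SD was 0.345. Of the 36 genes called higher, 14 belonged to the heat shock protein, HSF and other heat response lists, which is 38.9% of them. Among all 18457 tested genes these lists held 30 heat shock protein genes, 19 HSF genes and 10 other heat response genes. The library was selected on heat shock genes, so the 38.9% is a description of that choice and no separate result. In whole seeds, a difference in RNA per cell and a difference in the share of a cell type cannot be told apart.

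**Figure D1:**
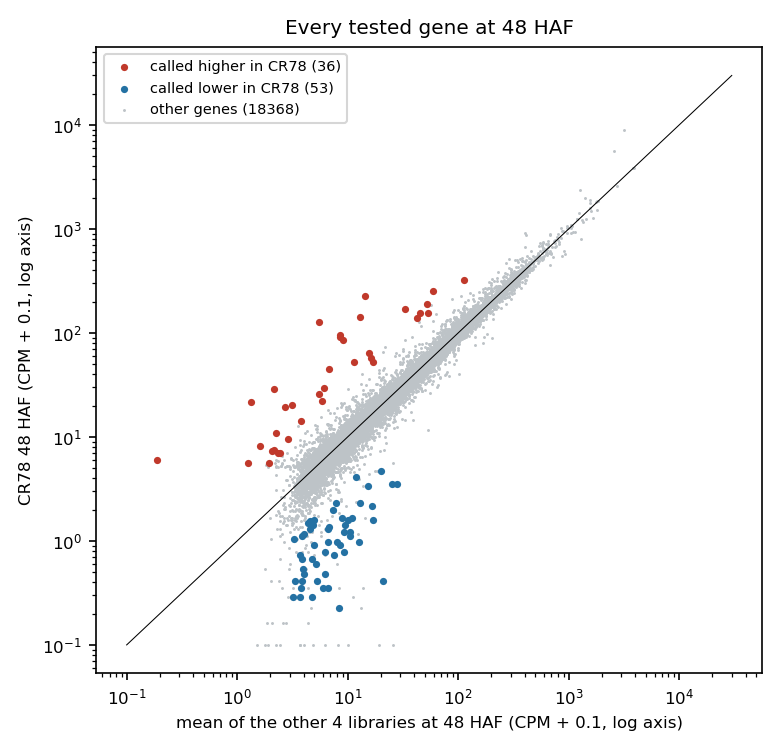
Level of every tested gene in CR78 48 HAF (vertical, CPM + 0.1, log axis) against its mean in the other 4 libraries at 48 HAF (horizontal, CPM + 0.1, log axis), with red points for the 36 genes called higher, blue points for the 53 called lower and a line of equality. Most genes lie along the line, the red points reach 324 CPM, and the blue points all lie below 5 CPM in CR78.

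HSP101 stood at 143 CPM in CR78 48 HAF, against 14.3 CPM in OE78, 10.9 CPM in OE79, 11.19 CPM in CR79 and 15.1 CPM in WT. The other 4 libraries lay close together and CR78 was 9.44-fold above the highest of them (log2 ratio to their mean 3.42). The counts behind this are 2275 reads in CR78, with an exact Poisson 95% interval of 137 to 149 CPM, and 258 reads in WT, with 13.3 to 17.1 CPM, where intervals cover counting error only. The organelle members of the same HSP100 class did not share this. CLPB-C, the chloroplast form, was at 66.5 CPM in CR78, below the 77.5 to 86.7 CPM of the other 4. CLPB-M, the mitochondrial form, was at 22.4 CPM, inside their range of 15.98 to 28.3 CPM.

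Small heat shock proteins were the class with most calls. Of 20 listed members 12 reached 5 CPM, 7 were called higher and 11 stood above all 4 other libraries, with a median log2 ratio of 1.75. Their summed level was 789 CPM in CR78, against 175 to 330 CPM in the other 4. HSP18.6 was at 28.8 CPM in CR78, against 1.60 CPM in OE78, 0.407 CPM in OE79, 2.71 CPM in CR79 and 3.58 CPM in WT. HSP18.1, a cytosolic class I member, was at 90.4 CPM in CR78, against 9.15 CPM in OE78, 5.46 CPM in OE79, 10.5 CPM in CR79 and 8.39 CPM in WT. Both were at or under 10.5 CPM in each of the other 4 libraries, and the ratio to the highest of them was 8.04 for HSP18.6 and 8.60 for HSP18.1.

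HSP17.4 and HSP17.7 carry identifiers next to that of HSP18.1 (LOC_Os03g16020, LOC_Os03g16040 and LOC_Os03g16030, in that order). Reads of such near copies may be split or shared between them, so their separate levels are uncertain. HSP17.4 was at 84.7 CPM in CR78, against 7.15 CPM in OE78, 4.88 CPM in OE79, 13.4 CPM in CR79 and 10.4 CPM in WT. HSP17.7 was at 52.5 CPM in CR78 and between 16.2 and 17.2 CPM in the other 4. Both were called higher, with log2 ratios of 3.17 and 1.62.

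The remaining called members were HSP24.1, HSP18.0 and HSP26.7. HSP24.1 was at 170 CPM in CR78, against 10.5 CPM in OE78, 7.20 CPM in OE79, 78.6 CPM in CR79 and 35.7 CPM in WT. HSP18.0, a cytosolic class II member, was at 155 CPM in CR78, against 27.0 CPM in OE78, 16.8 CPM in OE79, 71.8 CPM in CR79 and 64.3 CPM in WT. In both, CR79 and WT were above the overexpression lines, and CR78 was only 2.16-fold and 2.15-fold above CR79. HSP26.7, a chloroplast member, was at 20.4 CPM in CR78 and at 1.20 to 4.92 CPM in the other 4. It was highest in CR79 among them.

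The members just short of the call were HSP16.0, at 12.7 CPM against 7.99 CPM in CR79, and HSP17.9A, at 68.9 CPM against 44.9 CPM in CR79. HSP16.9A was at 6.72 CPM and HSP26.2 at 73.5 CPM in CR78, both above the other 4 by little, since their highest values were 6.12 and 73.2 CPM. HSP17.9B was the 1 tested member inside the range, at 15.3 CPM in CR78 and 9.38 to 24.9 CPM in the other 4. The remaining 8 members stayed under 5 CPM in all 5 libraries. Of these, HSP16.9C was at 3.71 CPM and HSP17.8 at 2.70 CPM in CR78, above maxima of 1.14 and 1.35 CPM. HSP16.9B was at 2.58 CPM, HSP22.3 at 1.44 CPM, HSP23.2 at 0.251 CPM, HSP21.9 at 0.126 CPM and HSP16.6 at 0.0628 CPM, while HSP19.0 had no read.

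The HSP70 and HSP90 families, which also fold proteins in unstressed cells, had few members called. Of 10 HSP70 family members 2 were called higher, 3 stood above all 4 libraries and 3 below all 4. The shares of all tested genes were 0.195%, 13.7% and 13.9%. The median log2 ratio of the family was -0.12. LOC_Os01g62290 was at 324 CPM in CR78, against 100 CPM in OE78, 73.5 CPM in OE79, 124 CPM in CR79 and 159 CPM in WT, which is 2.04-fold above the highest and just inside the call. LOC_Os05g38530 was at 189 CPM in CR78, against 20.4 to 66.8 CPM in the other 4. Both called genes were lowest in OE79 at 48 HAF. The third above all was LOC_Os03g16860, at 869 CPM in CR78 and 183 to 624 CPM in the other 4. It reached 971 CPM in OE78 72 HAF, so CR78 48 HAF was not its highest library. LOC_Os11g47760, with the highest count in the family, was at 1510 CPM in CR78, below the 1636 to 1951 CPM of the other 4. LOC_Os02g53420 and LOC_Os03g02260 were also below all 4, at 262 and 67.9 CPM. LOC_Os03g60620, LOC_Os05g23740, LOC_Os12g14070 and LOC_Os03g16920 were inside the range, at 253, 321, 104 and 1.63 CPM.

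In the HSP90 list 1 of 5 tested members was called higher. LOC_Os04g01740 was at 19.4 CPM in CR78, against 5.55 CPM in OE78, 0.871 CPM in OE79, 0.738 CPM in CR79 and 3.34 CPM in WT. HSP81-2 was at 721 CPM in CR78, above the 571 to 677 CPM of the other 4 by little. HSP81-1 was at 739 CPM in CR78, inside a range of 416 to 880 CPM, with WT the highest. LOC_Os08g38086 was inside the range at 111 CPM, LOC_Os12g32986 was below all 4 at 114 CPM, and HSP81-3 had no read. Over the HSP100, small heat shock protein, HSP70 and HSP90 lists together, 11 of 30 tested members were called higher (36.7%) and 17 stood above all 4 (56.7%), beside 0.195% and 13.7% of all tested genes. None was called lower. Because the library was selected on heat shock genes, these high shares were set in part by that choice and are no separate result. Of the called members, HSP18.6 and HSP26.7 reached 5 CPM in CR78 alone, with at most 3.58 and 4.92 CPM in the other 4.

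**Figure D2:**
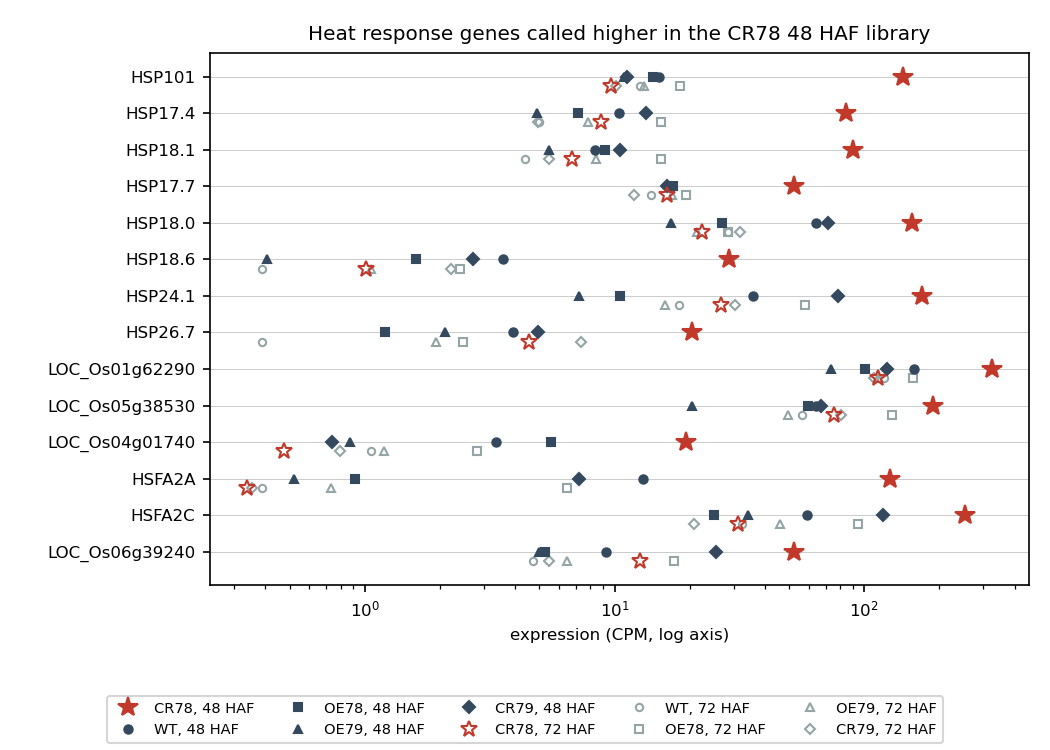
CPM (horizontal, log axis) of the 14 heat response genes called higher, with 1 point per library, filled for 48 HAF and open for 72 HAF. The filled red star of CR78 48 HAF lies right of all other points in each gene, and the open red star of CR78 72 HAF lies among the other libraries or, for HSFA2A, HSP101 and LOC_Os04g01740, left of them.

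Of the HSF genes, HSFA2A (LOC_Os03g53340) had the largest log2 ratio of all genes called higher, 4.43. It was at 127 CPM in CR78, against 0.915 CPM in OE78, 0.523 CPM in OE79, 7.19 CPM in CR79 and 13.0 CPM in WT. The 4 other libraries differed among themselves too, and even the highest of them, WT, was 9.77-fold below CR78. HSFA2C was at 252 CPM in CR78, against 24.99 CPM in OE78, 34.1 CPM in OE79, 118 CPM in CR79 and 58.8 CPM in WT. Its exact Poisson 95% interval was 245 to 260 CPM in CR78 and 113 to 124 CPM in CR79, again for counting error only.

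Of 25 listed HSF genes 19 were tested, 2 were called higher and 8 stood above all 4 libraries (42.1%), beside 0.195% and 13.7% of all tested genes. The selection of the library on heat shock genes bears on these shares too. Another 3 stood below all 4, and the median log2 ratio was -0.05. Besides the called genes, HSFA2D was at 116 CPM in CR78, against 20.0 to 86.2 CPM, HSFB2A at 43.9 CPM, against 13.0 to 36.3 CPM, and HSFB2B at 21.2 CPM, against 5.00 to 15.2 CPM. Each had CR79 as its next highest library at 48 HAF. The other uncalled genes above all 4 did not. HSFA4D and HSFA5 had OE79 next, at 5.46 CPM in CR78 against 4.94 CPM and at 22.2 CPM against 21.96 CPM. HSFC1B had WT next, at 5.09 CPM in CR78 against 3.52 CPM. HSFA4D and HSFC1B reached 5 CPM at 48 HAF in CR78 alone. Class B factors such as HSFB2A and HSFB2B lack the activation motif of class A. HSFA1, whose counterparts in Arabidopsis and tomato start the heat response, was at 75.4 CPM in CR78, inside a range of 71.8 to 86.9 CPM. HSFA3 was inside its range as well, at 168 CPM against 30.0 to 197 CPM. HSFB2C was at 12.2 CPM in CR78 and 9.70 to 45.9 CPM in the other 4. These HSF genes beyond the called ones were picked for naming after their values were seen.

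Of 10 other heat response genes, 3 stood above all 4 libraries and 2 below all 4, beside 13.7% and 13.9% of all tested genes. Of the 10, 1 was called higher, beside 0.195% of all tested genes. LOC_Os06g39240 was at 52.5 CPM in CR78, against 5.26 CPM in OE78, 5.00 CPM in OE79, 25.5 CPM in CR79 and 9.21 CPM in WT. DREB2A and DREB2B encode factors of the drought and heat response. DREB2A was at 17.3 CPM, below the other 4, and DREB2B at 78.1 CPM, above them by little, since their highest value was 67.0 CPM. APX2, a cytosolic ascorbate peroxidase that removes hydrogen peroxide, was at 581 CPM in CR78, below the 818 to 1147 CPM of the other 4. The lowest log2 ratio of the list, -2.55, was that of LOC_Os07g48830. It was at 0.628 CPM in CR78, against 5.83 CPM in OE78, 5.00 CPM in OE79, 0.184 CPM in CR79 and 13.4 CPM in WT.

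Chaperone groups outside the HSP classes had no member called higher. Of 8 co-chaperones and chaperonins none was called, none stood above all 4 libraries and 4 stood below all 4. Of all tested genes, 13.7% stood above and 13.9% below. The median log2 ratio of these 8 was -0.32. LOC_Os06g02380 and LOC_Os08g41390, with the highest counts of that list at 48 HAF, were inside the range at 673 and 271 CPM. Chaperones of the endoplasmic reticulum, where secreted and storage proteins fold, stood toward the low side. Of 6 tested members 5 stood below all 4 libraries (83.3%, beside 13.9% of all genes) with a median log2 ratio of -0.57, and none reached the 2-fold call. BIP1, the HSP70 of that compartment, was at 795 CPM in CR78, against 1163 CPM in OE78, 1052 CPM in OE79, 1198 CPM in CR79 and 1818 CPM in WT. CRT1, a calreticulin, was at 1272 CPM in CR78, against 1476 to 1803 CPM in the other 4. PDIL2-3, a protein disulfide isomerase, was at 135 CPM, against 158 to 239 CPM, while its relative PDIL1-1 was inside the range at 920 CPM. The summed level of the list was 4293 CPM in CR78, against 5172 to 7189 CPM.

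**Figure D3:**
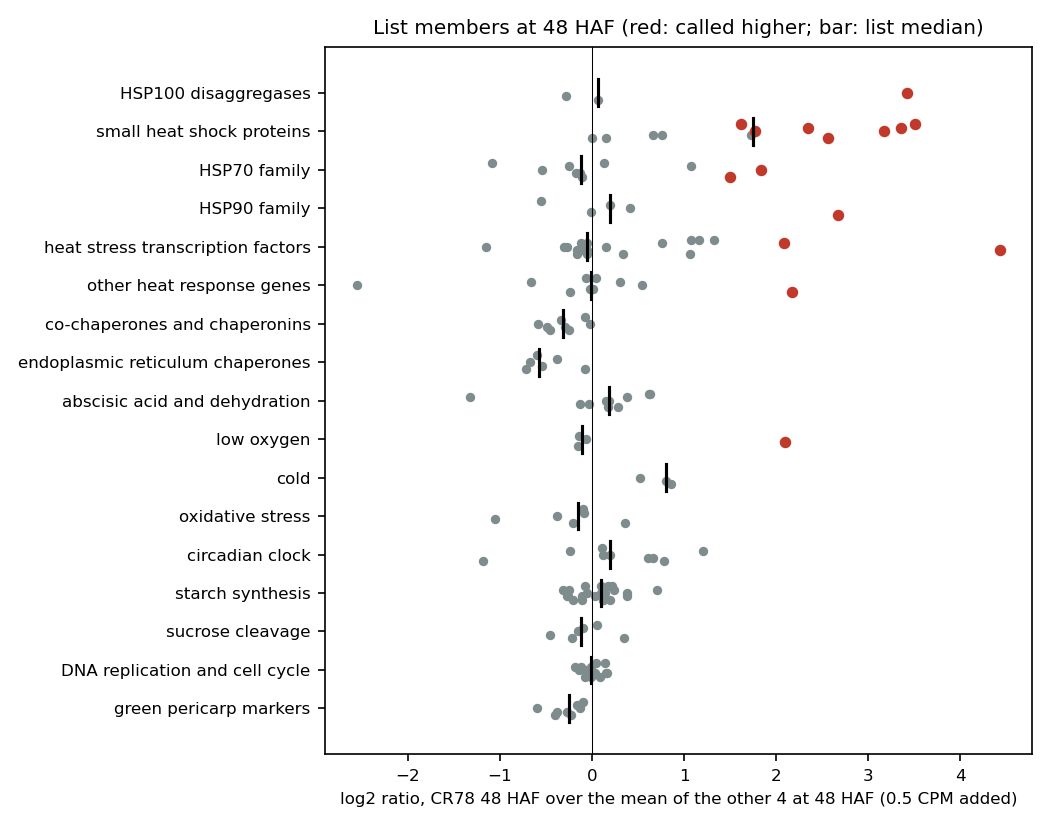
Log2 ratio of CR78 48 HAF to the mean of the other 4 libraries at 48 HAF (0.5 CPM added), with 1 point per tested list member, red where called higher and a bar at the list median. The small heat shock proteins lie furthest right, with a median of 1.75, the other lists have medians between -0.57 and 0.81, and red points outside the heat lists number 1, RAMY3D.

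Beyond the heat lists, 21 of the 36 genes called higher were in no list and carry an identifier only. LOC_Os11g31060 was at 225 CPM in CR78, against 2.46 CPM in OE78, 6.74 CPM in OE79, 37.2 CPM in CR79 and 10.4 CPM in WT. LOC_Os08g40910 was at 96.2 CPM in CR78, against 0.686 to 22.26 CPM. LOC_Os07g43740 was at 44.7 CPM in CR78, against 2.002 to 16.3 CPM. All had CR79 as the next highest library at 48 HAF, as did 22 of the 36 genes (61.1%), whereas CR79 was the highest of the other 4 for 33.8% of all tested genes. OE78 72 HAF was above CR79 48 HAF for LOC_Os11g31060, LOC_Os08g40910 and LOC_Os07g43740, at 59.7, 22.64 and 16.8 CPM. RAMY3D, an alpha-amylase gene known to respond to sugar starvation and low oxygen in rice, was at 8.04 CPM in CR78, against 0.114 CPM in OE78, 2.56 CPM in OE79, 3.07 CPM in CR79 and 0.235 CPM in WT. It reached 15.7 CPM in WT 72 HAF, so CR78 48 HAF was not its highest library. Over all 10 libraries, CR78 48 HAF was the highest for 29 of the 36 genes.

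The 53 genes called lower were of low abundance and in no list. LOC_Os01g39970 was at 3.39 CPM in CR78, against 20.0 CPM in OE78, 39.7 CPM in OE79, 20.3 CPM in CR79 and 31.6 CPM in WT. LOC_Os02g05670 was at 0.879 CPM in CR78, against 5.66 CPM in OE78, 17.3 CPM in OE79, 6.39 CPM in CR79 and 21.3 CPM in WT. LOC_Os01g27190 was at 1.51 CPM in CR78, against 11.251 to 23.5 CPM. WT was the highest library for 36 of the 53 genes (67.9%), against 24.13% of all tested genes. The rest of the 12 genes with the largest ratios had small values in CR78. LOC_Os05g30940, LOC_Os05g51090 and LOC_Os04g33710 were at 1.005, 0.691 and 0.628 CPM in CR78, and LOC_Os11g31400, LOC_Os04g38560, LOC_Os10g16880 and LOC_Os07g26480 at 0.188 to 0.377 CPM, or 3 to 6 reads.

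Most of these genes were low in every genotype at 72 HAF. For 37 of the 53 (69.8%), all 5 libraries at 72 HAF lay below the lowest of the other 4 at 48 HAF, against 1912 of all tested genes (10.4%). LOC_Os01g39970, for one, was at 2.17 CPM in CR78 72 HAF and 1.502 to 4.24 CPM in the other 4 at that time. For 32 of the 53 the CR78 48 HAF level fell inside the range of the 72 HAF libraries. The share of all tested genes that do so was not computed, so this count cannot be called high or low. Of the 5 endosperm markers 3 had no read in CR78 48 HAF, among them NF-YB1, an endosperm transcription factor subunit, which was at 13.6 CPM in CR78 72 HAF. The other two, LOC_Os02g15350 and LOC_Os07g08420, were at 4.77 and 1.76 CPM in CR78 48 HAF and at 109 and 18.7 CPM in CR78 72 HAF. WX, the granule-bound starch synthase gene, had no read in CR78 48 HAF and was at 652 CPM in CR78 72 HAF. Among the 48 HAF libraries, the 5 endosperm markers summed to 6.53 CPM in CR78, above 1.23 CPM in WT and 1.51 CPM in OE79. The sum was below the 9.44 CPM of OE78 and the 16.7 CPM of CR79. Whether the age of the seeds sampled had a part in the values of the 53 genes called lower was not tested. LOC_Os03g18779 and LOC_Os10g41838 varied widely among the other 4 libraries at 48 HAF. LOC_Os03g18779 was at 0.314 CPM in CR78, against 74.0 CPM in OE78, 1.45 CPM in OE79, 6.21 CPM in CR79 and 0.997 CPM in WT, and its log2 ratio moved to -2.06 without OE78, against -4.70 with it. LOC_Os10g41838 had 2 reads in CR78 and 0.469 to 21.2 CPM in the other 4.

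**Figure D4:**
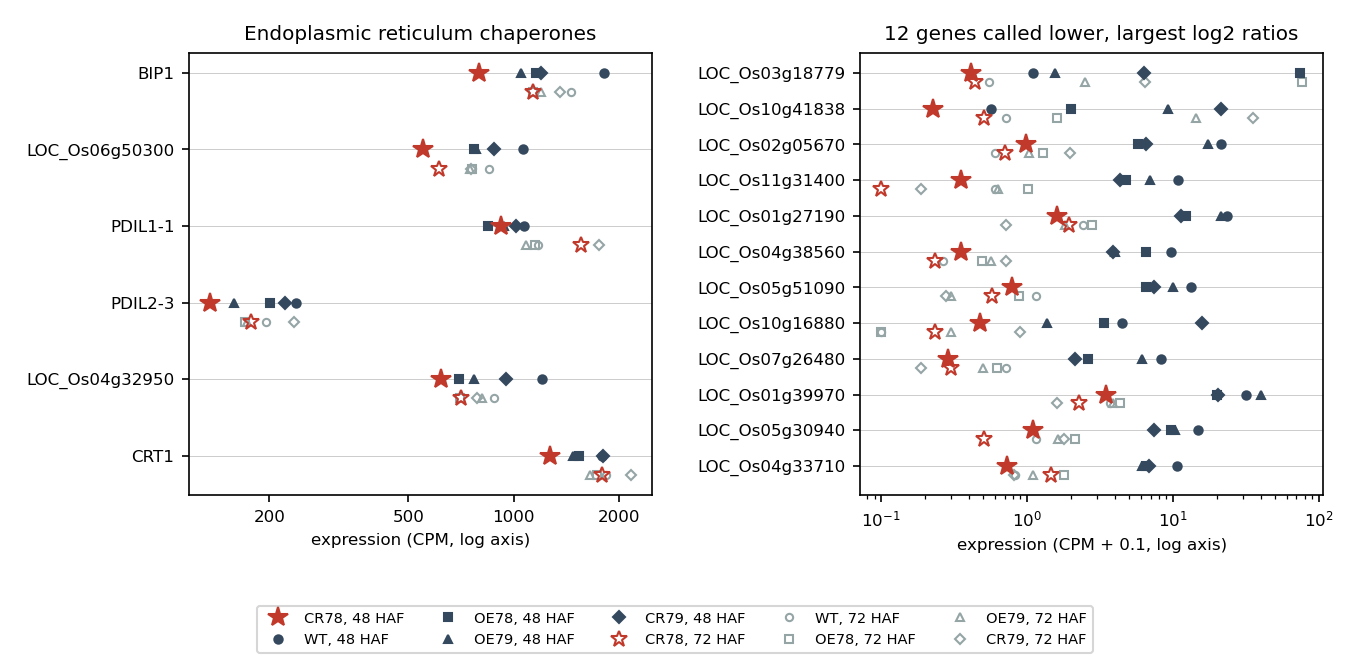
CPM per library (log axes, 0.1 CPM added on the right) of the 6 tested endoplasmic reticulum chaperones on the left and of the 12 genes called lower with the largest ratios on the right, filled for 48 HAF and open for 72 HAF. The filled red star of CR78 48 HAF is the leftmost filled point for 5 of the 6 chaperones, and most of the 12 genes have open points of all 5 genotypes near that star.

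No marker of another cell type was called higher, but only 1 of 6 anther and 2 of 5 endosperm markers reached 5 CPM at 48 HAF. Of 8 tested green pericarp genes none stood above all 4 libraries and 1 below, beside 13.7% and 13.9% of all tested genes. The summed level of the green pericarp list was 4567 CPM in CR78, against 4242 to 6916 CPM. The 6 anther markers summed to 44.4 CPM in CR78, against 40.7 to 55.6 CPM, most of it GAMYB, and C6, a tapetum gene, had no read in any library at 48 HAF. The 4 markers of nucellus and seed coat summed to 523 CPM, against 454 to 676 CPM. The endosperm markers summed to 6.53 CPM in CR78, against 1.23 to 16.7 CPM. The embryo markers OSH1 and OSH15, both homeobox genes, were at 21.92 and 5.15 CPM in CR78, with ranges of 9.10 to 23.4 and 1.47 to 3.66 CPM in the other 4. Their sum, 27.07 CPM in CR78, was above the 10.94 to 27.05 CPM of the other 4 by little. EXPB9, a beta-expansin gene known from pollen and added after the values were seen, was at 1.82 CPM in CR78, against 4.80 CPM in OE78, 2.85 CPM in OE79, 1.54 CPM in CR79 and 21.3 CPM in WT. The part of cell makeup in the heat gene levels was not tested.

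The CR78 72 HAF library gives the same measure in libraries that played no part in the choice. The edgeR test of that time compared 1 library with 4, on 3 residual degrees of freedom, and has little power. A gene that did not pass is therefore not shown to be unchanged. HSP101 was at 9.68 CPM in CR78 72 HAF, against 18.3 CPM in OE78, 13.1 CPM in OE79, 10.2 CPM in CR79 and 12.7 CPM in WT (log2 fold change -0.50, SE 0.362). HSFA2A was at 0.338 CPM in CR78 72 HAF, against 0.353 to 6.46 CPM in the other 4. The small heat shock proteins summed to 140 CPM, against 138 to 241 CPM. At 72 HAF none of 34 heat shock protein genes tested passed in either direction by edgeR's quasi-likelihood test with Benjamini-Hochberg adjustment, 1 had an unadjusted p under 0.05, and their median log2 fold change was -0.16. Of the 27 that reached 5 CPM, 8 stood above all 4 libraries and 4 below, beside 19.4% and 15.1% of all genes. One of those above was CLPB-C, at 186 CPM in CR78 72 HAF, against 108 to 157 CPM. None of 22 HSF genes passed either, with a median of -0.52. DESeq2 also called none of these heat shock protein and HSF genes.

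Over 25586 genes, edgeR called 0 higher and 0 lower, beside 776 genes (3.03%) at an unadjusted p under 0.05, and DESeq2 called 9 higher and 2 lower. The p-values measure the spread between the other 4 genotypes, which the lone CR78 library is taken to share. Without the CR79 72 HAF library the edgeR counts were 117 higher and 19 lower, of which none was a heat shock protein or HSF gene.

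The genes called at 48 HAF mostly did not repeat at 72 HAF. Of the 36 called higher, 29 reached 5 CPM at 72 HAF and 3 were again called higher by the same fold rule, beside 0.24% of all genes at that time. Their median log2 ratio was -0.16 at 72 HAF and 2.09 at 48 HAF. Of the 53 called lower, 12 reached 5 CPM and none was called lower again, beside 0.197% of all genes. Of these 12, 3 again stood below all 4 libraries, beside 15.1% of all genes. Among them, LOC_Os03g18779 was at 0.338 CPM in CR78 72 HAF, against 0.444 to 76.2 CPM, with a log2 ratio of -4.70 at both times. LOC_Os10g41838 was at 0.406 CPM, against 0.611 to 35.2 CPM, with log2 ratios of -3.80 at 48 HAF and -3.88 at 72 HAF. None of the 3 genes called higher at both times is a listed heat gene. LOC_Os11g40340 was at 21.7 and 11.6 CPM in CR78 at 48 and 72 HAF, against at most 2.76 and 0.666 CPM in the other 4. LOC_Os04g24770 was at 5.97 and 6.56 CPM in CR78, against at most 0.232 and 0.999 CPM. LOC_Os08g30150 was at 9.42 and 13.2 CPM in CR78, against at most 3.78 and 5.87 CPM. In these genes CR78 was above the other 4 libraries at both times. All 3 reached 5 CPM at 48 HAF in CR78 alone, and LOC_Os11g40340 and LOC_Os04g24770 did so at 72 HAF as well. They were thus among the tested genes through CR78 itself, and their count beside 0.24% is a description only. By edgeR at 72 HAF, LOC_Os11g40340 had a log2 fold change of 4.33 (SE 0.393, adjusted p = 0.299), and by DESeq2 its adjusted p was 9.3e-08, with 0.00958 by edgeR without CR79 and 0.0478 without the filter on low counts. Without WT, OE78 or OE79 it lay between 0.629 and 0.99984.

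**Figure D5:**
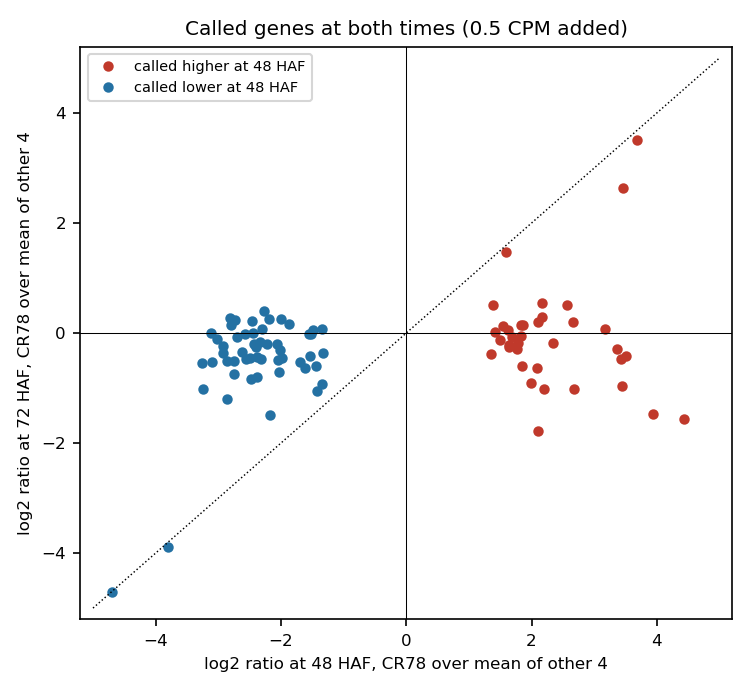
Log2 ratio of CR78 to the mean of the other 4 libraries at 48 HAF (horizontal) and at 72 HAF (vertical), with 0.5 CPM added, for the 36 genes called higher (red) and the 53 called lower (blue) at 48 HAF, and a dotted line of equal ratios. Most points lie near 0 on the vertical axis, with medians of -0.16 and -0.36, while LOC_Os11g40340 lies close to the line at 3.68 and 3.51. Among the blue points, LOC_Os03g18779 (-4.70 and -4.70) and LOC_Os10g41838 (-3.80 and -3.88) also lie close to the line. The former was highest in OE78 at both times (74.0 and 76.2 CPM), the latter in CR79 (21.2 and 35.2 CPM). WT was low in both genes, at 0.997 and 0.444 CPM and at 0.469 and 0.611 CPM.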

How the data were processed

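RNA-seq counts of reads per gene, 1 table per library, were deposited by the authors with no normalization. Per the submitters' processing notes, the tools were TopHat2 and HTSeq. Not given in the sources used here are their versions, the build, the annotation and the strand setting, so reads of near copies and of overlapping or antisense genes may be split or merged, and no coordinates are given. RNA was isolated with a Qiagen kit from seeds, per the labels' protocols.

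Of 55801 features 15472 had no read, and the 25354 kept by the edgeR filter (minimum count 10) set the TMM factors, which ran from 0.923 to 1.09 (1.02 in CR78 48 HAF). At 48 HAF no test was made: a call needed 2-fold past the highest or lowest of the other 4 libraries and 5 CPM in at least 1, with fewer than 3 counts taken as 3, and 0.5 CPM was added for log2 ratios. At 72 HAF edgeR 4.0.16 (quasi-likelihood, two-sided, threshold 0.05, R 4.3.3) compared 1 library with 4. The biological coefficient of variation was 30.3%, on 3 residual degrees of freedom. The test was run on simulated counts with set changes, and the call rule was recomputed gene by gene for a sample of genes. Both are checks of the code. The simulation gave all genes the same spread and no genotype differences, so it does not tell how often real changes would pass. Alternatives were DESeq2 1.42.0, other scalings, minimum levels and folds, and leaving out each library. Figures used matplotlib 3.10.9.

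The library, the gene lists and the call rule were chosen with earlier results of these data known. Of 210 pairs of name and identifier, 143 passed a check that the named RefSeq gene lies within 2 Mb of the place its neighbours in identifier order give, 64 names were missing from the table, 1 was contradicted and 2 identifiers were absent, leaving 207. Names are printed only for pairs that passed, and for MADS78 and MADS79 by their published identifiers. Text names follow the rule of all heat shock protein members, called or most abundant members of other lists, and the 12 largest ratios in each direction, and others were picked after their values were seen.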

Additional observations from a re-analysis of the deposited data

How the results depend on the processing

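The 36 genes called higher and 53 called lower stayed at 36 and 53 with DESeq2 size factors and were 35 and 54 with library totals. They were 66 and 122 at a minimum of 1 CPM, 153 and 150 with no minimum, 10 and 25 at a fold of 4, and 2536 and 2568 for any value outside the range, a rule added after the data were seen. Leaving out 1 of the other libraries gave 44 to 61 higher (55 without WT, 61 without CR79) and 57 to 79 lower. The 11 heat shock protein genes became 5 at a fold of 4 and 17 outside the range, and 11 to 12 with a library left out. The 2 HSF genes became 1, 8 and 2 to 5 (5 without CR79). Fewer libraries, a lower minimum or a wider rule admit more genes by construction. The 3 genes called higher at both times became 2 at a fold of 4. At 72 HAF, 0 higher and 0 lower became 9 and 2 with DESeq2, 2 and 0 with no filter on low counts, and 0 to 117 higher and 0 to 19 lower with a library left out (117 and 19 without CR79). The cause was not tested. No log2 ratio of a called gene that is named changed sign, and 17 recomputed log2 ratios moved by more than the SD of the other 4 libraries, all of them under another added count or without OE78. No paired analysis was possible because each genotype has 1 library at a time and the replicate number only names it. At 48 HAF, the lack of a replicate limits every call to the libraries themselves.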

Other observations

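In the other stress lists RAMY3D was the 1 gene called in CR78 48 HAF. Of all tested genes, 13.7% stood above and 13.9% below the other 4 libraries. The cold response factors DREB1A, DREB1B and DREB1C were at 51.0, 61.3 and 36.4 CPM in CR78, all inside ranges that ran from 5.03, 8.98 and 3.83 CPM in OE78 to 62.5, 61.6 and 40.9 CPM in WT. Of 10 tested abscisic acid and dehydration genes none was called, 2 stood above all 4 and 2 below, near those shares. DHN1, a dehydrin gene, was inside its range at 887 CPM. LEA3, a late embryogenesis abundant gene, was at 40.4 CPM in CR78, against 64.1 to 171 CPM in the other 4. Of 4 tested low oxygen genes RAMY3D was called higher, while ADH1, for alcohol dehydrogenase, was at 298 CPM, inside a range of 291 to 333 CPM. Of 6 oxidative stress genes 3 stood below all 4 and none above, with CATA, a catalase gene, inside its range at 756 CPM.

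Of 9 tested clock genes none was called, 5 stood above all 4 and 2 below, beside 13.7% and 13.9% of all tested genes. GI was at 467 CPM in CR78, against 167 CPM in OE78, 292 CPM in OE79, 313 CPM in CR79 and 312 CPM in WT. LHY, a morning gene, was at 89.8 CPM in CR78, against 369 CPM in OE78, 195 CPM in OE79, 140 CPM in CR79 and 112 CPM in WT. The collection hour is not given, and its part in the heat gene levels was not tested. These members were named after their values were seen.

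At 72 HAF no starch or sucrose gene passed the edgeR adjustment. Of 23 starch synthesis genes 16 stood above all 4 other libraries (19.4% of all genes did), with a median log2 fold change of 0.44, and 8 had an unadjusted p under 0.05 while none passed. Of 6 sucrose cleavage genes 4 stood above all 4 libraries and 1 below, CIN1, a cell wall invertase gene, at 6.02 CPM in CR78, against 6.45 to 15.8 CPM. SUS3, a sucrose synthase gene, was at 4098 CPM in CR78, against 952 CPM in OE78, 942 CPM in OE79, 2255 CPM in CR79 and 1219 CPM in WT (log2 fold change 1.61, SE 0.445, edgeR adjusted p = 0.999). At 48 HAF the starch genes had a median log2 ratio of 0.10, and no member was called.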
